A study of Homo sapiens with 4 samples.

Results

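The genes described here are 9 genes of the integrated stress response, namely *ATF4*, *ATF5*, *DDIT3*, *TRIB3*, *CHAC1*, *ASNS*, *CEBPB*, *PPP1R15A* and *NUPR1*. They were chosen by name, as the transcription factor ATF4, related factors and genes that act downstream of it, and were found by Ensembl identifier in the count table, where they are 9 of 63856 genes. All 9 passed the filter on low counts and are among the 15830 genes tested. RNA-seq was performed on MCF10A, a non-tumorigenic human breast epithelial cell line, as wild type (WT) cells and as cells overexpressing the heat shock transcription factor HSF1 (HSF1-pLVX), with 2 libraries of each variant. The HSF1-pLVX cells were made by stable lentiviral transduction with the pLVX vector carrying HSF1 and puromycin selection. By the labels all cells grew in the same medium, DMEM/F12 with horse serum, insulin, hydrocortisone, EGF and cholera toxin (the study's methods list no cholera toxin), and no acute stress is described for the libraries. Libraries of cells with the empty vector were not analysed here, so HSF1 overexpression cannot be told apart from transduction and selection.

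In the integrated stress response, kinases that sense unfolded proteins, amino acid shortage, heme shortage or double-stranded RNA phosphorylate the translation factor eIF2. Protein synthesis then slows in general, while the mRNA of *ATF4* and of a few other genes is translated more, because short upstream reading frames no longer block it. ATF4 binds, often as a dimer with a C/EBP protein, to C/EBP-ATF response elements and switches on genes for amino acid uptake and synthesis, tRNA charging and redox balance, and under lasting stress genes linked to cell death. PPP1R15A (GADD34) closes the loop by bringing a phosphatase to eIF2. RNA-seq measures the RNA of these genes and not the amount of ATF4 protein or the phosphorylation of eIF2.

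The DNA motif bound by ATF4 is shown first, because several of the genes described below carry it close to a RefSeq start. The 250 bases before each RefSeq gene start on GRCh38.p14 were searched on both strands for the C/EBP-ATF response element TGATGNAA (TTNCATCA on the other strand). It was present in 3.14% of 35116 windows, and in the windows of 3.89% of 27305 gene symbols. Of the 9 genes, 8 had a window, and *NUPR1* had none. Among them *ASNS* and *CHAC1* held a match. The first base of the match lay 68 bases before a RefSeq start of *ASNS* and 209 bases before one of *CHAC1*. A gene can have several starts, and these lay 134 and 509 bases inside the span over which reads of the gene were counted, so that both matches also lie within that span. Stretches of 30 bases on the strand of the gene are printed 5′ to 3′, with the match in capitals.
ASNS, chr7:97872458-97872487, minus strand: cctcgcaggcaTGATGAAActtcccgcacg
CHAC1, chr15:40953251-40953280, plus strand: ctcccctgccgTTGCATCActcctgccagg
*PPP1R15A* held no C/EBP-ATF response element in its window but a cyclic AMP response element, TGACGTCA, which occurred in 1.65% of all windows. Its first base lay 58 bases before the RefSeq start, which was 29 bases inside the counted span.
PPP1R15A, chr19:48872352-48872381, plus strand: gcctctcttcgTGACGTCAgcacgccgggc
HSF1 binds heat shock elements, and a pair of their units, GAANNTTC or TTCNNGAA, was present in 11.6% of windows. It was present in 1 of the 16 windows of the 9 genes, that of *ASNS*, where it shared 4 bases with the response element printed above. Only the pair was searched for, and not a full heat shock element. A match describes the letters in the window only, and binding was not measured in these libraries.

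The libraries held between 18688109 and 24184285 counts. Levels are given as CPM, counts scaled to a common library size, after TMM normalization, a scaling that sets the bulk of genes equal between libraries. *HSF1*, the overexpressed gene, was at 194.8 ± 7.94 CPM in WT and 990.5 ± 11.46 CPM in HSF1-pLVX cells (SD, n = 2), a 5.08-fold difference in the direction the labels give. All 12 epithelial markers examined had more than 3 counts in at least one library, and 9 were lower and 2, *KRT5* and *TP63*, higher in HSF1-pLVX cells. The summed level of these markers was 28730 and 27800 CPM in the WT and 13340 and 13870 CPM in the HSF1-pLVX libraries. Of 9 fibroblast markers, *COL1A2*, *COL3A1*, *LUM* and *THY1* had at most 3 counts in every library. The sum of the fibroblast list, 199.3 and 227.2 CPM in WT and 59.87 and 48.93 CPM in HSF1-pLVX cells, was mostly *FAP*, which fell. *DCN* was the fibroblast marker that rose, from 1 and 3 counts in WT to 94 and 87 counts in HSF1-pLVX libraries (edgeR adjusted p = 1.12e-07). The 5 endothelial and leukocyte markers summed to at most 1.31 CPM in any library, with *PTPRC* at 0. The part of these marker differences in the results below was not tested. Changes were tested by the quasi-likelihood test of edgeR, with p-values adjusted by the Benjamini-Hochberg method over all tested genes and called at 0.05. Under this test 32.7% of all tested genes were higher and 33.2% were lower in HSF1-pLVX cells, and the median of all fitted log2 fold changes was 0.02. All p-values rest on 2 libraries per variant. The test does not use the spread of a gene between these libraries alone, but moderates it toward the spread of other genes. The study describes the libraries as biological replicates without saying how they were separated.

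Of the 9 genes, 6 were higher in HSF1-pLVX cells (66.7%), 2 were lower (22.2%) and 1 was not called. *ASNS*, *TRIB3*, *ATF4*, *CHAC1*, *NUPR1* and *CEBPB* rose. *PPP1R15A* and *ATF5* fell, and *DDIT3* did not pass the test. The fitted log2 fold changes (log2 of HSF1-pLVX over WT) ran from -1.48 for *PPP1R15A* to 2.46 for *ASNS*, with a median of 0.58.

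**Figure D1:**
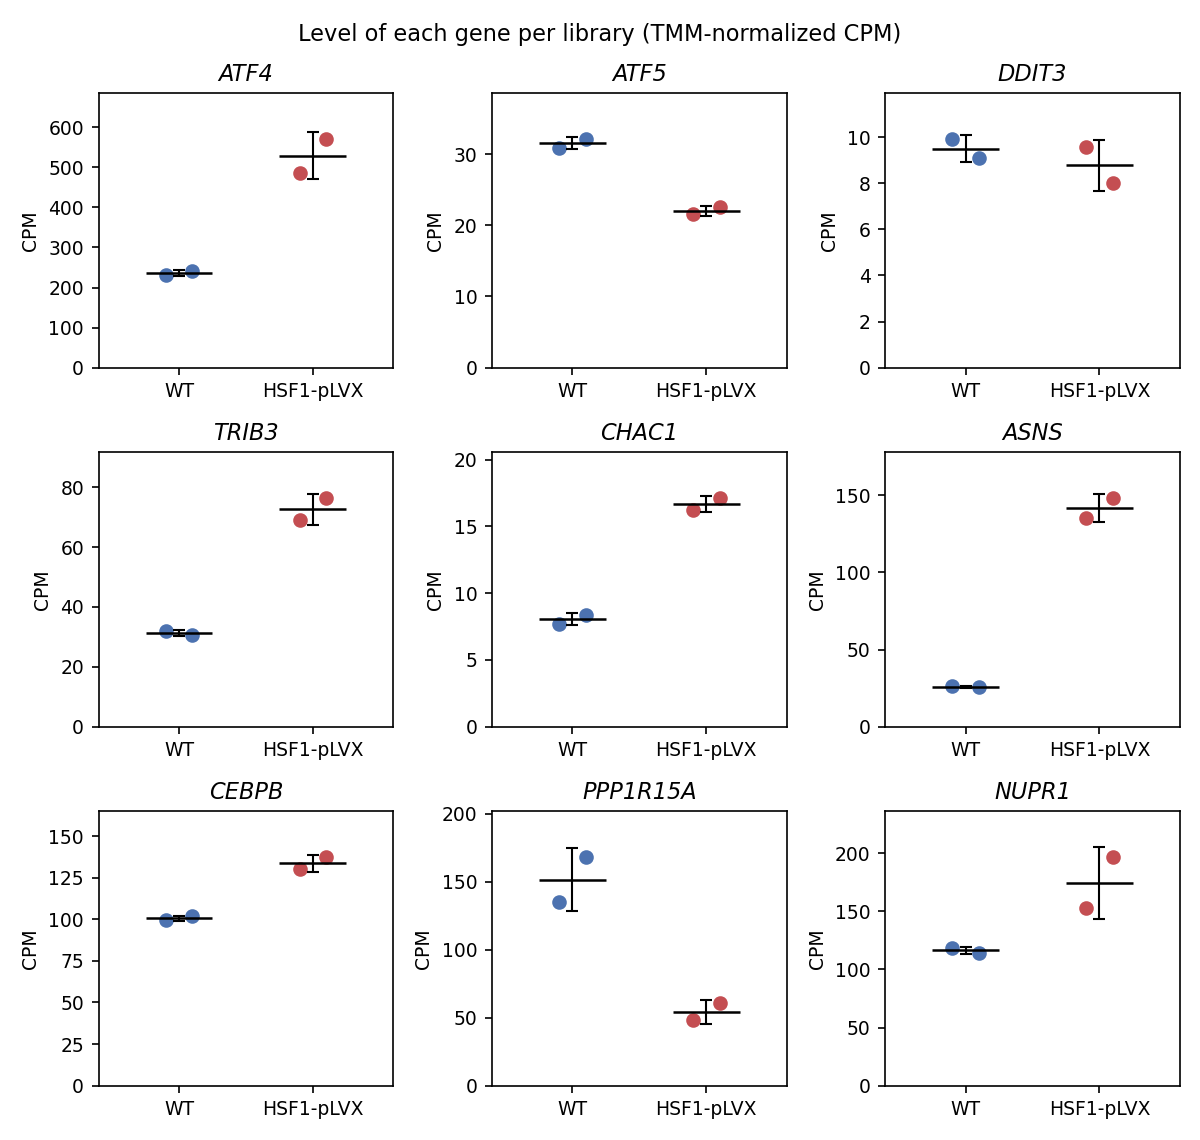
Level of each of the 9 genes in the 4 libraries, in TMM-normalized CPM on a linear axis that starts at 0. Points are libraries, horizontal lines are the mean of 2 libraries and bars are ± SD. The libraries of both variants overlap for *DDIT3* alone, and *PPP1R15A* and *ATF5* are the genes whose HSF1-pLVX libraries both lie below the WT libraries. How many of all tested genes lack such an overlap was not counted. With 2 libraries against 2, a gene without any difference lacks it with a chance of 0.33. By the edgeR test, 32.7% of all tested genes rose and 33.2% fell. The lack of overlap therefore describes the genes shown and does not set them apart from other genes.

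*ATF4*, the central transcription factor of the response (ENSG00000128272.14, hg38 chromosome 22, 39519695 to 39522685, plus strand), was at 231.8 and 242.4 CPM in the WT libraries and at 486.9 and 570.2 CPM in the HSF1-pLVX libraries. The lowest HSF1-pLVX library was thus above the highest WT library, and the HSF1-pLVX libraries stood further apart than the WT ones. The means were 237.1 ± 7.474 and 528.6 ± 58.91 CPM (SD, n = 2), a 2.23-fold rise with a 95% interval of 1.91 to 2.59 (log2 fold change 1.16, SE 0.102, edgeR adjusted p = 1.86e-07). In bulk RNA a change in the number of cells of a kind and a change in RNA per cell cannot be told apart. Reads of *ATF4* may be shared with its processed copies. Of these, *ATF4P3* had 13 and 13 counts in WT and 44 and 45 in HSF1-pLVX libraries, against 4352 to 12224 counts for *ATF4* itself. *ATF4P4* had 11 and 6 counts in WT and 15 and 8 in HSF1-pLVX libraries, and *ATF4P1* and *ATF4P2* had none.

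*ATF5* (ENSG00000169136.10, hg38 chromosome 19, 49928702 to 49933935, plus strand) encodes a factor related to ATF4 whose translation is also controlled by upstream reading frames, and which acts in the mitochondrial stress response. It was at 30.9 and 32.08 CPM in WT and at 21.51 and 22.55 CPM in HSF1-pLVX libraries. The variants did not overlap, and libraries of one variant lay close together. *ATF5* fell, with a log2 fold change of -0.52 (SE 0.095, 95% interval -0.72 to -0.31, edgeR adjusted p = 2.51e-04), so that its RNA was 1.43-fold higher in WT cells. Its counted exons overlap those of *NUP62*, a nuclear pore gene on the other strand, by 626 bases or 21.2% of the counted length, and those of *IL4I1* by 75 bases. *NUP62* had a log2 fold change of 0.47, in the direction opposite to that of *ATF5*. Since the strand setting of the counting is not given in the sources used here, reads of the overlapping exons cannot be assigned with certainty.

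*DDIT3* (ENSG00000175197.11, hg38 chromosome 12, 57516588 to 57520517, minus strand) encodes CHOP, the factor that links lasting stress to cell death. It was at 9.909 and 9.096 CPM in WT and at 9.56 and 8.004 CPM in HSF1-pLVX libraries, so that the ranges of the variants overlapped. The log2 fold change was -0.11 with a 95% interval of -0.42 to 0.21 (SE 0.146, edgeR adjusted p = 0.533). In linear terms this interval runs from 0.747 to 1.15 times the WT level, and it does not include the 2.23-fold rise of *ATF4*. *DDIT3* overlaps *MARS1*, the methionine tRNA synthetase gene on the other strand, in 355 bases, 28% of its counted length. *MARS1* was more abundant, with 3305 and 3065 counts in WT and 6006 and 4948 counts in HSF1-pLVX libraries against 159 to 240 counts for *DDIT3*, so a share of the *DDIT3* counts may belong to *MARS1*. The *CEBPB* exons overlap the antisense gene *CEBPB-AS1* in 231 bases, but that gene had at most 7 counts in any library.

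*CEBPB* (ENSG00000172216.5, hg38 chromosome 20, 50190734 to 50192689, plus strand), which encodes a partner of ATF4 on DNA, was at 99.3 and 101.7 CPM in WT and at 130.1 and 137.3 CPM in HSF1-pLVX libraries. The difference was small but larger than the spread in either variant. The means were 100.5 ± 1.713 and 133.7 ± 5.138 CPM (SD, n = 2), a 1.33-fold rise with a 95% interval of 1.17 to 1.51 (log2 fold change 0.41, edgeR adjusted p = 6.53e-04). *CEBPB* had the smallest rise of the 6 genes that rose.

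*NUPR1* (ENSG00000176046.8, hg38 chromosome 16, 28532708 to 28539174, minus strand) encodes a small stress-induced chromatin protein. It was at 118.6 and 114.2 CPM in WT and at 152.6 and 196.4 CPM in HSF1-pLVX libraries. Both HSF1-pLVX libraries were above both WT libraries, but they differed from each other by more than the lower of them differed from WT. The rise was 1.5-fold, with a 95% interval of 1.27 to 1.76 (log2 fold change 0.58, SE 0.11, edgeR adjusted p = 3.15e-04). Without HSF1-pLVX replicate 1 the log2 fold change was 0.76, and without replicate 2 it was 0.40.

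*ASNS* (ENSG00000070669.16, hg38 chromosome 7, 97852118 to 97872542, minus strand) encodes asparagine synthetase, and the response element printed first above lies close to a RefSeq start of this gene. It was at 26.21 and 25.4 CPM in WT and at 135.4 and 148.1 CPM in HSF1-pLVX libraries. The gap between the variants was much wider than the difference between the libraries of either variant. The means were 25.81 ± 0.5702 and 141.8 ± 8.988 CPM (SD, n = 2), a 5.49-fold rise with a 95% interval of 4.79 to 6.3 (log2 fold change 2.46, SE 0.0924, edgeR adjusted p = 4.05e-11). This was the largest change among the 9 genes. Its pseudogenes *ASNSP1*, *ASNSP3*, *ASNSP4* and *ASNSP6* had at most 1 count in any library.

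*TRIB3* (ENSG00000101255.10, hg38 chromosome 20, 362835 to 397559, plus strand) encodes a pseudokinase that is a target of ATF4 and DDIT3 and restrains them in return. It was at 32.12 and 30.62 CPM in WT and at 68.95 and 76.36 CPM in HSF1-pLVX libraries, with no overlap of the variants. The rise was 2.31-fold, with a 95% interval of 2.02 to 2.65 (log2 fold change 1.21, SE 0.0902, edgeR adjusted p = 3.15e-08). The interval of *TRIB3* overlaps that of *ATF4*.

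*CHAC1* (ENSG00000128965.11, hg38 chromosome 15, 40952962 to 40956519, plus strand), which encodes an enzyme that breaks down glutathione, had the lowest level per kilobase of counted exon length of the 9 genes in WT cells. It was at 7.724 and 8.396 CPM in WT and at 16.25 and 17.11 CPM in HSF1-pLVX libraries. The libraries of each variant lay close together although they held only 145 to 408 counts of this gene. The rise was 2.07-fold, with a 95% interval of 1.71 to 2.49 (log2 fold change 1.05, SE 0.126, edgeR adjusted p = 4.45e-06).

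*PPP1R15A* (ENSG00000087074.7, hg38 chromosome 19, 48872392 to 48876057, plus strand) encodes the stress-induced subunit that directs protein phosphatase 1 to eIF2. It was at 135.1 and 168 CPM in WT and at 48.24 and 60.71 CPM in HSF1-pLVX libraries. Both HSF1-pLVX libraries lay far below both WT libraries, although the WT libraries differed from each other. The means were 151.6 ± 23.29 and 54.47 ± 8.817 CPM (SD, n = 2). The log2 fold change was -1.48 (SE 0.122, 95% interval -1.74 to -1.22, edgeR adjusted p = 8.79e-08), so that the RNA was 2.79-fold higher in WT cells, with an interval of 2.33 to 3.34. *PPP1R15A* thus moved opposite to *ATF4*, *TRIB3*, *CHAC1* and *ASNS*.

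**Figure D2:**
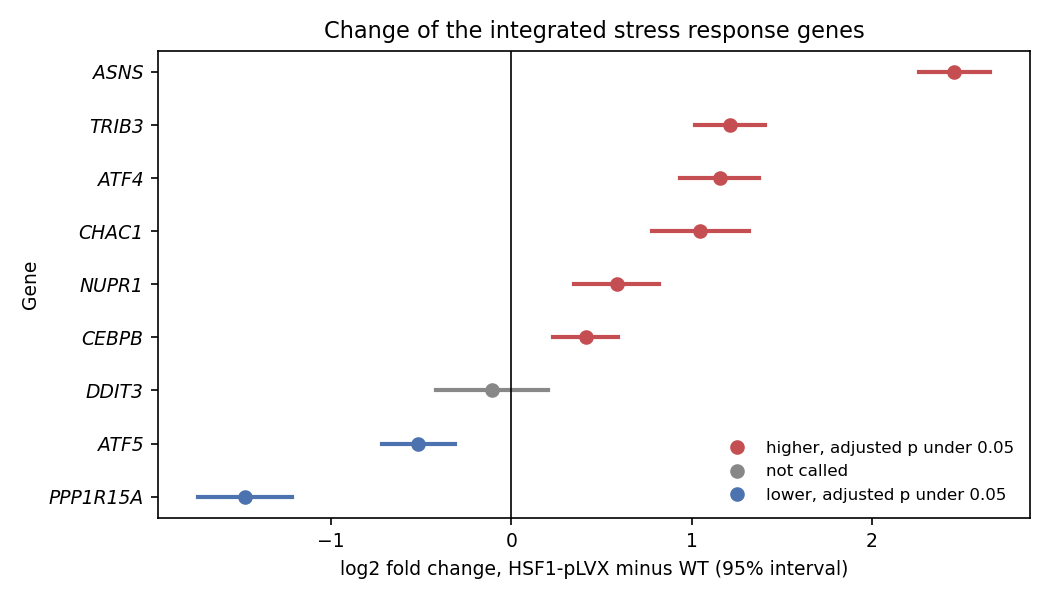
Fitted log2 fold change of each gene, HSF1-pLVX minus WT, on the horizontal axis, with its 95% interval as a bar. *ASNS* stands apart at 2.46, *TRIB3*, *ATF4* and *CHAC1* lie between 1.05 and 1.21, and the interval of *DDIT3* crosses 0.

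The counts of each gene were also divided by those of *ATF4* in the same library, a ratio that does not depend on how libraries are scaled. *TRIB3* had 0.139 and 0.126 counts per *ATF4* count in WT and 0.142 and 0.134 in HSF1-pLVX libraries, so that the variants overlapped. *CHAC1* had 0.0333 and 0.0346 in WT and 0.0334 and 0.03 in HSF1-pLVX libraries, which also overlapped. Both genes thus kept their abundance relative to *ATF4* within the spread of the libraries.

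*ASNS* rose more than *ATF4*, from 0.113 and 0.105 counts per *ATF4* count in WT to 0.278 and 0.26 in HSF1-pLVX libraries. For *PPP1R15A* the ratio was 0.583 and 0.693 in WT but 0.0991 and 0.106 in HSF1-pLVX libraries. For *DDIT3* it was 0.0427 and 0.0375 in WT and 0.0196 and 0.014 in HSF1-pLVX libraries. *DDIT3* was thus less abundant relative to *ATF4* in both HSF1-pLVX libraries, while its own level did not pass the test. *ATF5*, *CEBPB* and *NUPR1* were also lower relative to *ATF4*, with no overlap. *ATF5* stood at 0.133 and 0.132 in WT and 0.0442 and 0.0395 in HSF1-pLVX libraries. *CEBPB* stood at 0.428 and 0.42 against 0.267 and 0.241. *NUPR1* stood at 0.511 and 0.471 against 0.313 and 0.344. Since *ATF4* itself rose, any gene that was unchanged or rose less than *ATF4* is lower by this ratio. *CEBPB* and *NUPR1* rose in their own level. The share of all tested genes that is lower relative to *ATF4* was not counted, nor was the share whose ratios lack an overlap of the variants. These ratios are given as a description and were not tested.

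**Figure D3:**
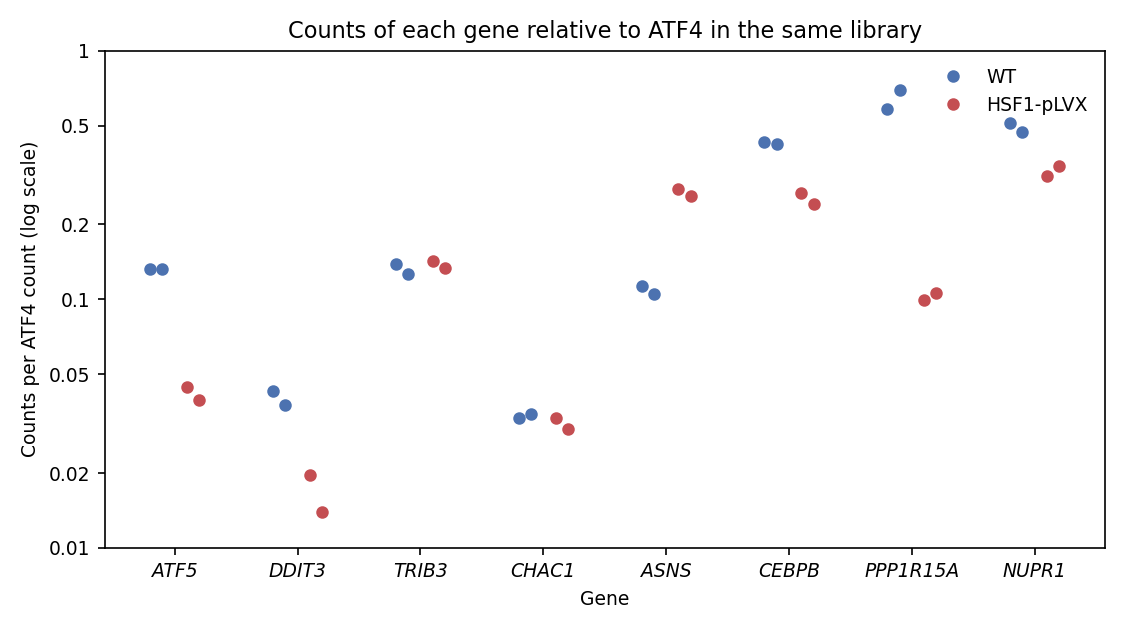
Counts of each of the other 8 genes per count of *ATF4* in the same library, on a log axis. Points are libraries. *TRIB3* and *CHAC1* overlap between variants near 0.13 and 0.03. Relative to *ATF4*, which itself rose, *ASNS* is higher in HSF1-pLVX cells, and *ATF5*, *DDIT3*, *CEBPB*, *PPP1R15A* and *NUPR1* are lower.

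Levels of different genes were compared as CPM per kilobase of counted exon length. This length merges the exons of all annotated transcripts and can exceed that of the RNA present. It was longest for *NUPR1*, at 5674 bases. The order of the genes below depends on these lengths, and genes were not tested against each other. By this measure *ATF4* had the highest level of the 9 genes in WT cells, at 94.32 ± 2.973 CPM per kilobase (SD, n = 2). *CEBPB* (51.39 ± 0.8758) and *PPP1R15A* (49 ± 7.529) followed, with overlapping SD ranges. *NUPR1* was at 20.51 ± 0.5453, *ATF5* at 10.66 ± 0.2824 and *TRIB3* at 9.136 ± 0.3086 CPM per kilobase. The lowest levels were those of *DDIT3* at 7.506 ± 0.454, *ASNS* at 5.793 ± 0.128 and *CHAC1* at 3.917 ± 0.2308 CPM per kilobase.

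In HSF1-pLVX cells *ATF4* was again first, at 210.2 ± 23.43 CPM per kilobase, and *CEBPB* was second at 68.35 ± 2.627. *ASNS* moved from eighth to the third place, at 31.83 ± 2.018, where its SD range overlapped that of *NUPR1* at 30.76 ± 5.456. *PPP1R15A*, at 17.61 ± 2.851, was then close to *TRIB3* at 21.16 ± 1.526. *CHAC1* at 8.106 ± 0.2965 was above *ATF5* at 7.458 ± 0.2493 CPM per kilobase. The SD range of *DDIT3*, at 6.937 ± 0.8692, overlapped that of *ATF5*.

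The study compares variants by the ratio of normalized values within each replicate number and asks for a 2-fold difference in both. With the deposited normalized values, on a log2-like scale, *ASNS* (4.88 and 5.64), *TRIB3* (2.05 and 2.44) and *ATF4* (2.03 and 2.33) had ratios above 2 in both replicate numbers, as did 5.00% of the 22321 rows of that table. *PPP1R15A* (0.35 and 0.362) had ratios below 0.5 in both, as did 6.42% of the rows. *CHAC1* fell just short of the limit, with ratios of 1.94 and 1.93, and *NUPR1* had 1.24 and 1.7. The ratios of *CEBPB* were 1.27 and 1.34, those of *ATF5* were 0.683 and 0.706, and those of *DDIT3* were 0.939 and 0.884.

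The wider pathway was described with 104 other genes in 9 lists by role, of which 101 were tested. Of these 60 rose (59.4%), 26 fell (25.7%) and 15 did not pass the test, against 32.7% and 33.2% of all tested genes, and their median log2 fold change was 0.44. The lists were drawn up with earlier results of these data known. The shares and medians therefore describe the chosen genes and do not test the pathway. Among the kinases that phosphorylate eIF2, *EIF2AK3*, which encodes the endoplasmic reticulum kinase PERK, fell. It was at 52.53 and 59.8 CPM in WT and 19 and 15.96 CPM in HSF1-pLVX libraries (log2 fold change -1.68, edgeR adjusted p = 6.71e-09). The other kinases did not pass the test, with log2 fold changes of -0.10 for *EIF2AK1* (HRI), 0.05 for *EIF2AK2* (PKR) and 0.01 for *EIF2AK4* (GCN2), and 0.17 for *GCN1*, the activator of GCN2. *OMA1* and *DELE1*, which carry a mitochondrial stress signal to HRI, rose with log2 fold changes of 0.88 and 0.43. *IMPACT*, which restrains GCN2 by competing for GCN1 and so is neither a kinase nor an activator, rose with a log2 fold change of 0.38. In all, 3 of the 8 genes of this list, *IMPACT* included, rose and 1 fell, with a median of 0.11.

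Of 12 genes for eIF2, its exchange factor eIF2B and the eIF2 phosphatases, 5 rose and 4 fell, with a median log2 fold change of -0.09. The eIF2 gamma subunit gene *EIF2S3* rose by 1.34 and the phosphatase catalytic subunit gene *PPP1CC* by 1.07 on the log2 scale. *EIF2B2* fell by 0.778 and *PPP1CB* fell by 0.674 on that scale. The catalytic subunit genes thus moved in both directions while *PPP1R15A* fell. Without HSF1-pLVX replicate 2 the list held 3 genes that rose and 1 that fell, and without WT replicate 1 it held 2 that fell.

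Among 9 related bZIP factors and tribbles, 5 rose and 2 fell, with a median of 0.55. *CEBPD*, a relative of *CEBPB*, was at 19.87 and 21.47 CPM in WT and 93.84 and 107.9 CPM in HSF1-pLVX libraries (log2 fold change 2.29, edgeR adjusted p = 1.45e-10). *JDP2*, a repressor of the AP-1 and ATF family, rose by 1.37. *ATF3*, a stress-induced factor downstream of ATF4, was at 61.32 and 114.7 CPM in WT and at 20.63 and 22.25 CPM in HSF1-pLVX libraries. It fell by 2.04 on the log2 scale (edgeR adjusted p = 7.14e-07), and the WT libraries differed more from each other than the HSF1-pLVX libraries did. *NFE2L1* fell by 0.581.

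Among the lists chosen here, those of amino acid supply had the highest medians. Of 9 tested amino acid transporters 8 rose and none fell, with a median log2 fold change of 1.322. *SLC1A5*, a glutamine transporter, was at 63.29 and 53.87 CPM in WT and at 301.6 and 360.4 CPM in HSF1-pLVX libraries (log2 fold change 2.50, edgeR adjusted p = 2.41e-10). *SLC43A1* had 5 and 3 counts in WT and 57 and 77 in HSF1-pLVX libraries, so that its log2 fold change of 3.79 rests on few WT counts. *SLC7A3* had no counts.

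Of 15 genes of amino acid and one-carbon synthesis 13 rose and 2 fell, with a median of 1.56. *PHGDH*, which encodes the first enzyme of serine synthesis, was at 16.35 and 13.72 CPM in WT and at 179.9 and 197.3 CPM in HSF1-pLVX libraries (log2 fold change 3.65, edgeR adjusted p = 5.84e-12). *CBS*, for the first step from homocysteine to cysteine, had 7 and 11 counts in WT and 125 and 67 in HSF1-pLVX libraries. *BCAT1*, the cytosolic branched-chain aminotransferase gene, went the other way, from 26.9 and 32.56 CPM in WT to 4.063 and 2.013 CPM in HSF1-pLVX libraries (log2 fold change -3.25, edgeR adjusted p = 4.96e-09). *GOT1*, an aspartate aminotransferase gene, fell by 0.628. Of 13 genes of tRNA charging and export 10 rose and none fell, with a median of 0.66. The largest rises were those of *XPOT*, the tRNA exporter gene, at 1.61, and *IARS1*, the isoleucine tRNA synthetase gene, at 1.30 on the log2 scale.

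**Figure D4:**
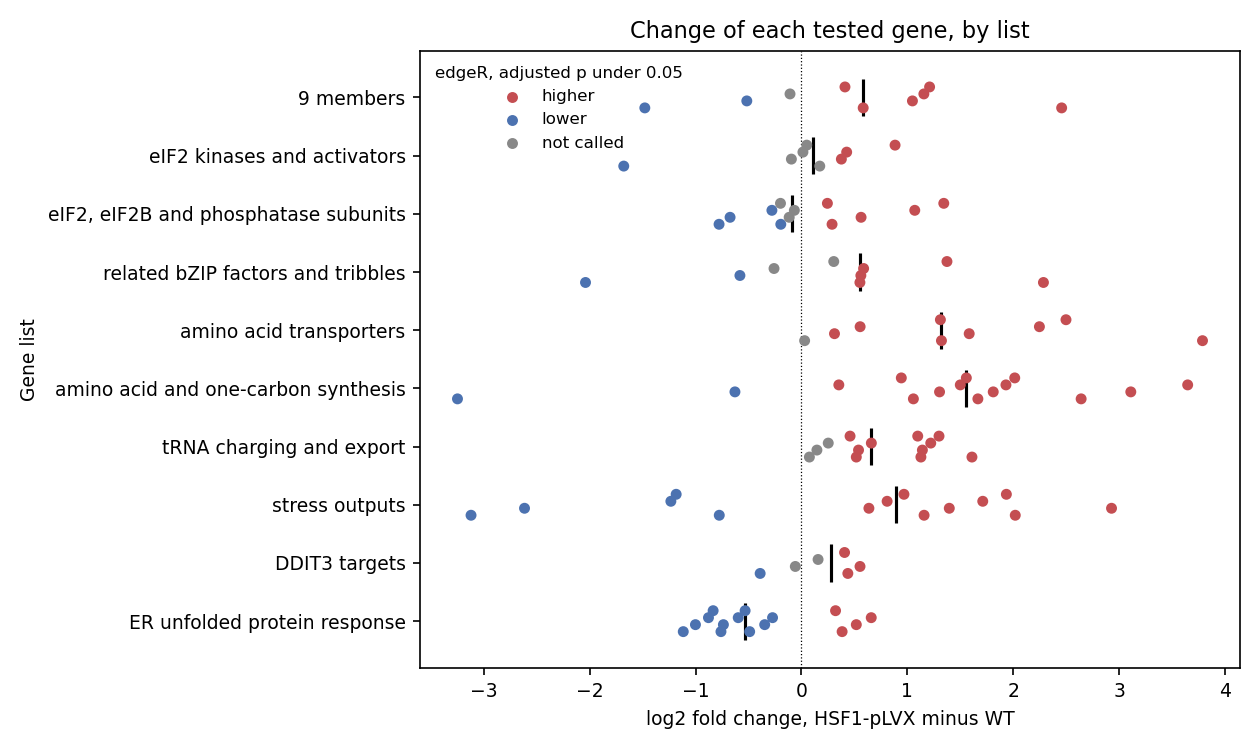
Fitted log2 fold change of each tested gene, HSF1-pLVX minus WT, for the 9 genes (top) and the 9 lists of other pathway genes. Each point is a gene, coloured by whether it passed the test, and the black bar is the median of the list. The medians of the 3 lists of amino acid supply and tRNA charging lie between 0.66 and 1.56, and that of the endoplasmic reticulum list lies at -0.53.

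Of 14 tested stress output genes 9 rose and 5 fell, with a median of 0.89. *DDIT4*, which encodes the mTORC1 inhibitor REDD1, was at 70.48 and 72.5 CPM in WT and at 528.5 and 559.6 CPM in HSF1-pLVX libraries (log2 fold change 2.93, edgeR adjusted p = 1.59e-11). *NIBAN1* rose by 2.02. *HMOX1*, for heme oxygenase, fell from 15.82 and 18.35 CPM to 2.549 and 1.258 CPM (log2 fold change -3.12, edgeR adjusted p = 1.56e-08), and *VLDLR*, a lipoprotein receptor gene, fell by 2.61 on the log2 scale. *FGF21* had 0 counts in both WT and 2 in both HSF1-pLVX libraries and was not tested. Of 6 genes reported as targets of DDIT3, 3 rose and 1 fell, with a median of 0.28. Only 1 rose when WT replicate 1 or HSF1-pLVX replicate 2 was left out. The largest rises in that list were 0.55 for *BCL2L11* and 0.44 for *BBC3*, both for pro-apoptotic BCL2 relatives, and the death receptor gene *TNFRSF10A* fell by 0.390.

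Genes of the endoplasmic reticulum unfolded protein response, which shares PERK with the integrated stress response but has other branches, went mostly down. Of 15 tested genes 4 rose and 11 fell, with a median of -0.53. The chaperone genes *CALR* and *HSPA5*, the second of which encodes BiP, both fell. *CALR* was at 1363 and 1247 CPM in WT and at 669.5 and 634.4 CPM in HSF1-pLVX libraries (edgeR adjusted p = 9.04e-07). *HSPA5* fell by 0.737 and *DNAJB9* fell by 1.12 on the log2 scale. *ERN1*, which encodes the sensor IRE1, and *XBP1*, its target, rose by 0.66 and 0.52. The row of *HYOU1* held 1 count in both WT and 0 in both HSF1-pLVX libraries and was not tested. Whether its RNA was absent or its reads were not assigned to this row cannot be told from the counts.

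The C/EBP-ATF response element was then looked for among the 9 genes and the 104 listed genes together. A window was found for 92 of these 113 genes, and 15 of them, 16.3%, held a match, against 3.89% of all symbols. Many of the listed genes are known targets of ATF4, so this share describes how the lists were drawn up and not these libraries. Of the 15 genes, 9 rose, 4 fell, *PPP1R15B* did not pass the test and *FGF21* was not tested. Of the 101 tested genes on the lists, with or without a match, 59.4% rose and 25.7% fell. The sets differ, since the 101 genes leave out the 9 genes, while the 15 genes include *ASNS* and *CHAC1*, which both rose. The 3 genes outside the 9 with the largest rises and the 3 with the largest falls are printed as examples. They were chosen after their values were seen. The first base of the match lay 97 bases before a RefSeq start of *SLC1A5*, 16 before one of *JDP2* and 13 before one of *IARS1*, which rose. These starts lay 3780, 306 and 59 bases inside the counted spans of the genes.
SLC1A5, chr19:46784893-46784922, minus strand: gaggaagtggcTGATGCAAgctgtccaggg
JDP2, chr14:75427995-75428024, plus strand: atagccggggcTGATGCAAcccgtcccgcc
IARS1, chr9:92293692-92293721, minus strand: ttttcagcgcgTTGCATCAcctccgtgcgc
It lay 48 bases before a RefSeq start of *BCAT1*, 191 before one of *ATF3* and 198 before one of *GOT1*, which fell. The starts of *BCAT1* and *ATF3* lay 358 and 73 bases inside the counted spans, and that of *GOT1* was the first counted base.
BCAT1, chr12:24949131-24949160, minus strand: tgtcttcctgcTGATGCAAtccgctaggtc
ATF3, chr1:212565205-212565234, plus strand: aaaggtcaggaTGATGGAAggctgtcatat
GOT1, chr10:99430804-99430833, minus strand: aattgcattggTTGCATCAttctcggcagc
The matches of *SLC1A5*, *JDP2* and *BCAT1* had the same letters, TGATGCAA, and *BCAT1* moved opposite to the other two.

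The genes whose pattern over the 4 libraries lay nearest to that of *ATF4* were *RPL5P34*, a ribosomal protein pseudogene, *TLCD5* and a gene listed only as ENSG00000232909. Their log2 CPM values, centred on their mean, lay at Euclidean distances of 0.0467, 0.0472 and 0.0527 from those of *ATF4*. ENSG00000232909 was at only 0.266 and 0.269 CPM in WT and 0.637 and 0.755 CPM in HSF1-pLVX libraries, so its nearness rests on few counts. The likeness covers only 4 libraries of 2 variants, the counts of a pseudogene can include reads of its parent gene, and none of the 3 is on the lists above.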

How the data were processed

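RNA-seq libraries of MCF10A cells, 2 WT and 2 HSF1-pLVX, were grouped by their titles. Per the labels and the study's methods, the authors aligned 76 bp paired-end reads to hg38 with HISAT2 2.0.5, used SAMtools 1.13 and featureCounts 1.6.5, and deposited raw counts per gene (GENCODE 26) together with the summed exon length. Strand, overlap and multi-mapping settings are not given in the sources used here. The second deposited table holds log2-like values normalized by the authors with DESeq2 1.32.0, and was used only for ratios within replicate number.

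The test was that of edgeR 4.0.16, run under R 4.3.3 on the counts as deposited (TMM, filterByExpr defaults, quasi-likelihood test without a block, Benjamini-Hochberg adjustment over all tested genes). The SE is the log2 fold change divided by the square root of F, and intervals cover 95%. The test was tried on simulated counts. A count of 3 was taken as the floor. Depth limits *CHAC1* and *DDIT3* most.

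Symbols came from GENCODE 44, and motif windows from RefSeq (GRCh38.p14). The genes and lists were chosen with earlier results of these data known. Named genes are the 9 genes, *HSF1*, overlapping genes, the 3 nearest to *ATF4*, and per list up to 2 called genes in each direction with at least 50 counts in the higher group. Kinases that were not called, *GCN1*, *IMPACT*, *HSPA5* and genes under the filter were named after their values were seen. Alternatives covered normalization, filter, DESeq2 1.42.0, the block, a 2-fold limit, the deposited values and each library left out.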

Additional observations from a re-analysis of the deposited data

How the results depend on the processing

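The 8 called genes kept their direction and call in 9 of 9 alternatives to the test (size factors, library size only, no filter, DESeq2, the replicate block and each library left out), with a highest adjusted p of 0.0356, for *NUPR1*. *DDIT3* was not called under any of them and changed sign without HSF1-pLVX replicate 2, where its log2 fold change was 0.018 (edgeR adjusted p = 0.924). Leaving out each library gave -0.243 to 0.018 for it. Leaving out 1 library assumes that the lone library varies like the other variant. The deposited values gave log2 differences of -0.53 for *ATF5*, 0.95 for *CHAC1* and 0.38 for *CEBPB*, against -0.52, 1.05 and 0.41 from the counts. When a change of at least 2-fold was asked for, 2358 genes were higher and 2218 lower, 4 of the 9 genes were higher and 1, *PPP1R15A*, was lower, and 33 listed genes were higher and 9 lower. Leaving out each library gave 3783 to 4923 genes higher and 3846 to 4962 lower, with 6 and 2 of the 9 genes each time. No source used here says that a replicate number pairs the libraries. The correlation of same-numbered deviations was 0.000143 in the full set, and -0.113 when limited to 9672 genes with a mean level above 8 CPM, and 2 pairs cannot settle the pairing. With the replicate block 5138 genes were higher and 5171 lower, 6 and 2 of the 9 genes, and 60 and 24 listed genes, and no call among the 9 genes changed. In that fit no spread particular to a gene was left, so its p-values rest on spread shared across genes. Of 180 counts per list, 17 moved by over 1.5 times, 11 of them at the 2-fold limit and the others for the eIF2 subunits and the DDIT3 targets. DESeq2 called 4129 genes higher and 4540 lower. With library size alone the median of all genes moved by 0.061.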

Other observations

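Some stress genes that fell in HSF1-pLVX cells differed between the WT libraries. *ATF3* was at 61.32 and 114.7 CPM in WT replicates 1 and 2, *GADD45A*, a stress-induced growth arrest gene, was at 189.6 and 254.1 CPM, and *PPP1R15A* was at 135.1 and 168 CPM. *TRIB1*, a relative of *TRIB3*, was at 36.07 and 63.99 CPM in WT and at 37.28 and 46.51 CPM in HSF1-pLVX libraries and did not pass the test (log2 fold change -0.26, edgeR adjusted p = 0.236). All 4 genes were higher in WT replicate 2 than in WT replicate 1. They were chosen after their values were seen, and the cause was not tested.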
